A study of Mus musculus with 7 samples.

Results

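The genes described here are Egr1, Egr2, Egr3, Egr4, Nr4a1 and Nr4a3, chosen by symbol, and they make up 6 of the 17732 genes listed in the authors' deposited table. That table compares bulk polyadenylated RNA from the medial prefrontal cortex of wild-type male 129SvEv mice, taken after retrieval of a remote memory. There were 3 libraries labelled CFC and 4 labelled SC, names that the labels do not spell out. The labels give no age and do not say whether each library came from its own animal. The p-values therefore refer to the spread between libraries as the authors' test models it, and part of that spread may be technical. No label or header says which group is the numerator of a fold change, and each difference is therefore given as positive or negative, after its sign in the authors' deposited table. The table holds means over libraries and results of a test, so no value of a single library could be shown and the depth of each library is unknown.

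Both families encode transcription factors whose genes are switched on within minutes of neuronal firing, without new protein synthesis, and they are widely used as marks of recently active neurons. The Egr proteins bind GC-rich DNA through zinc fingers, and the corepressors Nab1 and Nab2 hold some of them in check. The Nr4a proteins are orphan nuclear receptors that act without a classical hormone ligand, alone or with a retinoid X receptor partner, and they have been tied to memory consolidation in the hippocampus. Their promoters respond to calcium and kinase signalling through the serum response factor, which binds CArG boxes, and through the cAMP response element binding protein, CREB.

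Of the 6 genes, 5 had a positive and 1 a negative log2 fold change, and Nr4a3 alone was under 0.05 by the adjusted p-values of the authors' deposited table. At that threshold 0.513% of the 13060 genes with an adjusted p-value were called, 0.368% as positive and 0.145% as negative. Without adjustment, 4 of the 6 had a p-value under 0.05 (Egr1, Egr2 and Nr4a3 positive, Egr3 negative), where the share over all genes tested was 8.10%, with 4.56% positive and 3.54% negative. The median log2 fold change was 0.24 over the 6 genes and -0.0017 over all genes tested, of which 49.4% were positive. The genes were named with results of these data known, so these counts are a description.

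Promoter windows were examined for motifs of these inputs, as a description of sequence and not to account for the fold changes. RefSeq windows on GRCm38.p6, reaching from 250 bases before to 50 bases after a transcription start, were used for 4 of the 6 genes, namely Egr2, Egr4, Nr4a1 and Nr4a3. Windows of Egr1 and of Egr3, the only member with a negative value, were not used. Of the other genes, Nr4a3 was the only member that passed the test over all genes, and Nr4a1 its paralogue with a difference near 0. Egr2 was the Egr gene with the highest fold change and Egr4 the one nearest to 0. The windows shown cover all 4 of these genes, not a choice among them by result. They lie at chr4:48045055-48045354 on the plus strand for Nr4a3, chr15:101266596-101266895 on the plus strand for Nr4a1, chr10:67537619-67537918 on the plus strand for Egr2, and chr6:85513540-85513839 on the minus strand for Egr4. For Egr2, with 5 windows, the first of those with the most motif matches is shown. Capitals mark the CREB core motif TGACG, the shared core of cAMP response elements, read on either strand (CGTCA on the other), and in Egr2 also the CArG box.
Nr4a3: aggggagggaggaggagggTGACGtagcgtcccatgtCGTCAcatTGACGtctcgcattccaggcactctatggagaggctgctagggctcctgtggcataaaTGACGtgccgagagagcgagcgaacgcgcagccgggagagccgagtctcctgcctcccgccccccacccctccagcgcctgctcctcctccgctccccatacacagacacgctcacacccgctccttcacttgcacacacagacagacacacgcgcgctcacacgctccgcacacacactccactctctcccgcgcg
Nr4a1: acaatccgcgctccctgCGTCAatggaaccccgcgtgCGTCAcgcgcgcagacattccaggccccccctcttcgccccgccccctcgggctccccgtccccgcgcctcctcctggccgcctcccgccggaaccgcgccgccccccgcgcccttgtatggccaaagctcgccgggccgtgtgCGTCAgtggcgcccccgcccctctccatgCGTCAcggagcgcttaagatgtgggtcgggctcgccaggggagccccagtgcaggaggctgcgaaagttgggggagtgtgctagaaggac
Egr2: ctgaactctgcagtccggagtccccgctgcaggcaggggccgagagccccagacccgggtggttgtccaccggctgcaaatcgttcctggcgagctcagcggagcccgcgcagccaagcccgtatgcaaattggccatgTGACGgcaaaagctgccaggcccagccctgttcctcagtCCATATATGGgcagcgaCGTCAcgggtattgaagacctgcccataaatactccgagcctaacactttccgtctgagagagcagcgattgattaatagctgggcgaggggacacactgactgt
Egr4: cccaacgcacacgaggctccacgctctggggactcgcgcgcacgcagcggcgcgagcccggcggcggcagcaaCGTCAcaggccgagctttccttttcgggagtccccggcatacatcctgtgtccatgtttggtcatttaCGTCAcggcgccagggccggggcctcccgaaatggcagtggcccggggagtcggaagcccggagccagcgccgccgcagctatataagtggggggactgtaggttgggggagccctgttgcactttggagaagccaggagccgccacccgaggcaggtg

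The windows of Nr4a3 and Nr4a1 held 4 CREB core motifs each, a number reached or passed in 0.231% of the 32851 RefSeq windows of the same length. The window of Nr4a2, the remaining gene of the family, also held 4, beside a MEF2 site, a motif found in 3.19% of windows. The share of G and C bases was 64.7% in the window of Nr4a3, 72.3% in that of Nr4a1 and 81.7% in that of Nr4a2. All windows served as background, without matching for base composition, so the rarity of these numbers among similar windows was not tested. In the printed windows of Egr2 and Egr4 there were 2 core motifs, a number reached or passed in 5.01% of windows. Since the Egr2 window was picked for its matches among 5, this share is no measure for Egr2. Of its other windows, the one starting at 67535249 held none of the motifs searched and the one starting at 67537316 held a CArG box and 0 core motifs. A CArG box was present in the Egr2 window from -72 to -63, counted from the transcription start at 0. Such a box was in 1.63% of all windows, a share that is likewise no measure for the picked Egr2 window. The complete element TGACGTCA, which contains the core motif, was in 1.79% of all windows and in none of those printed. The Egr site GCGTGGGCG (0.612% of windows) and the Nr4a site AAAGGTCA (1.51%) were likewise not in the printed windows. Nr4a1 and Nr4a3 thus had equal numbers of core motifs in these windows. One of them, from -213 to -209 and read on the other strand, had the same place in both genes, and the rest lay at different distances, as the map of motif matches shows. A match describes letters only, and no binding was measured.

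**Figure D1:**
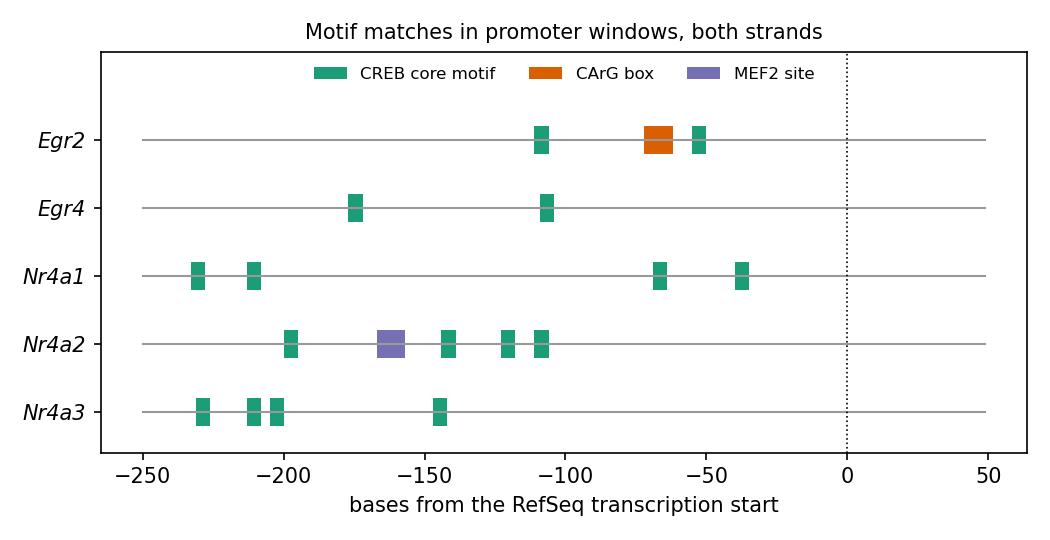
Motif matches in the RefSeq promoter windows of 5 genes, by distance in bases from the transcription start at 0. Green bars are CREB core motifs, the orange bar a CArG box and the purple bar a MEF2 site. The 3 Nr4a genes have 4 core motifs each, and Egr2 and Egr4 have 2.

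The genes differed widely in abundance. Divided by the exon length of each gene in GENCODE M21, the mean normalized count per kb was 601 for Egr1, 553 for Egr3, 310 for Nr4a1, 135 for Egr4, 122 for Nr4a3 and 10.9 for Egr2. Egr1, the most widely studied member and a common marker of active cortical neurons, stood 54.9 times as high as Egr2, known best for hindbrain segmentation and for myelination by Schwann cells. Within the Nr4a family, Nr4a1 was 2.55 times as high as Nr4a3 and 6.83 times as high as Nr4a2, which stood at 45.5 per kb. The table gives no spread over libraries for a mean count, so it was not tested whether neighbours in this order, such as Egr1 and Egr3 or Egr4 and Nr4a3, differ.

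Nr4a3 (ENSMUSG00000028341), an orphan nuclear receptor on chromosome 4 (48045153 to 48086447, plus strand, GRCm38), had a mean normalized count of 729.7 and a log2 fold change of 0.42 ± 0.10 (SE) in the authors' deposited table. That is a 1.33-fold difference, with a 95% confidence interval from 1.17 to 1.52. The adjusted p-value (Wald test) was 0.00643, per the authors' deposited table, which placed it 29th by p-value among the 13060 genes. The call was lost with a Bonferroni adjustment over these 13060 genes (0.173) and when only differences beyond 1.2-fold were tested for (1).

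Nr4a1 (ENSMUSG00000023034), the best known activity-induced receptor of the family (chromosome 15, 101254269 to 101274795, plus strand), had a mean normalized count of 1089 and a log2 fold change of 0.08 ± 0.10 (SE) per the authors' deposited table. Its adjusted p-value (Wald test) was 0.994, per the authors' deposited table. The 95% confidence interval ran from 0.915-fold to 1.21-fold, which leaves out the 1.33-fold estimate of Nr4a3. The difference between Nr4a3 and Nr4a1 was 0.34 on the log2 scale. Genes of the same libraries share errors to an unknown degree, and the widest 95% interval that any such correlation allows, with both standard errors summed, ran from -0.05 to 0.73. Without correlation it would run from 0.06 to 0.62. A different response of these paralogues is thus not shown.

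Nr4a2 (ENSMUSG00000026826), known for the development of dopamine neurons and not among the 6 genes, had a log2 fold change of 0.50 ± 0.18 (SE) per the authors' deposited table. Its adjusted p-value (Wald test) was 0.26, per the authors' deposited table, and its 95% confidence interval ran from 1.11-fold to 1.79-fold. The estimate lay above that of Nr4a3 with a standard error that was larger at its lower mean count of 184.6. The interval of the difference between Nr4a2 and Nr4a3, with standard errors summed, was from -0.45 to 0.61.

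Egr1 (ENSMUSG00000038418) had the highest mean normalized count of the 6 genes, 2694, and a log2 fold change of 0.41 ± 0.19 (SE) in the authors' deposited table. This is nearly the estimate of Nr4a3, at 1.98 times its standard error. The 95% confidence interval ran from 1.03-fold to 1.72-fold, and the adjusted p-value was 0.55 by the Wald test in the authors' deposited table. The difference between Nr4a3 and Egr1 was 0.0048, with an interval from -0.55 to 0.56. One of the genes passed the threshold and the other did not, with fold changes that could not be told apart.

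Egr2 (ENSMUSG00000037868, chromosome 10, 67535475 to 67542188, plus strand) had the highest log2 fold change of the 6 genes, 1.06 ± 0.36 (SE) in the authors' deposited table. This is 2.08-fold, with a 95% confidence interval from 1.28 to 3.38, and 47 of the 13060 genes had a log2 fold change at least as high. The adjusted p-value (Wald test) was 0.197, per the authors' deposited table. Egr2 was also the least abundant of the 6, with a mean normalized count of 37.2, close to 34.9, the lowest mean count given an adjusted p-value. Of the genes tested, 102 had a mean count as low or lower.

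Egr3 (ENSMUSG00000033730, chromosome 14, 70077203 to 70082614, plus strand), a regulator that acts downstream of neuronal activity and in muscle spindle development, was the only one of the 6 with a negative value. Its log2 fold change was -0.24 ± 0.08 (SE), at a mean normalized count of 2436, per the authors' deposited table. The 95% confidence interval ran from 0.76-fold to 0.939-fold. The adjusted p-value (Wald test) was 0.158, per the authors' deposited table. The unadjusted p-value of Egr3, 0.00169, was lower than those of Egr2 (0.00293) and Egr1 (0.0298), although its fold change was smaller than theirs.

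Egr4 (ENSMUSG00000071341, chromosome 6, 85511121 to 85513589, minus strand), expressed mainly in the nervous system, had a log2 fold change of 0.0048 ± 0.13 (SE) per the authors' deposited table. The adjusted p-value (Wald test) was 0.999, per the authors' deposited table. Its mean normalized count was 289.1. The 95% confidence interval, from 0.845-fold to 1.19-fold, leaves out the estimates of Egr1 and Egr2. With the error of Egr1 included, the difference between Egr1 and Egr4 was 0.41 with an interval from -0.21 to 1.02, so these paralogues were not told apart.

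**Figure D2:**
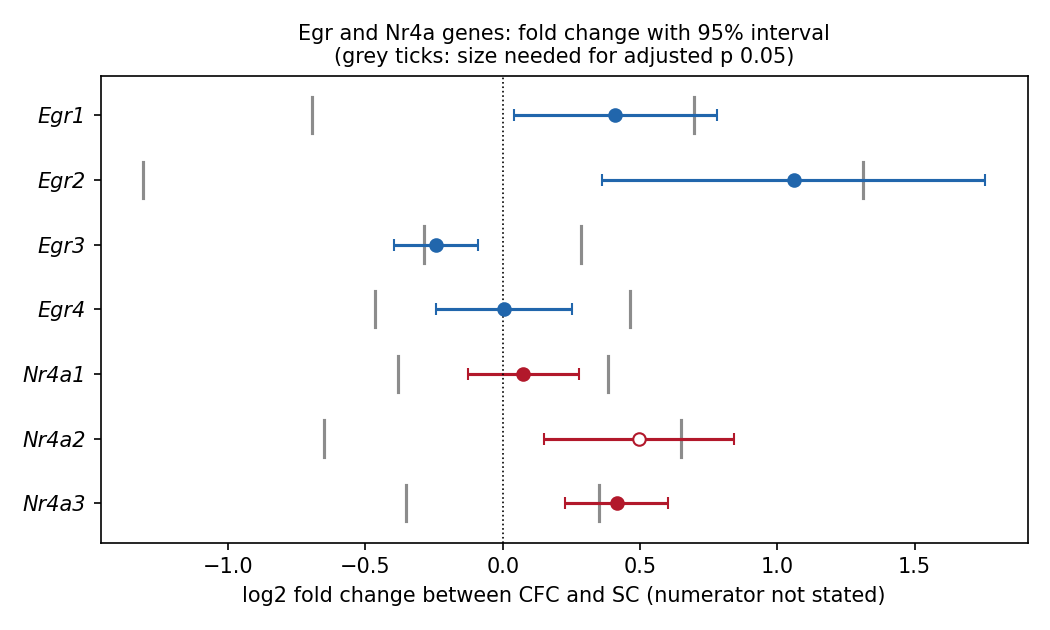
Log2 fold change between CFC and SC (horizontal axis) with 95% confidence intervals for the 4 Egr genes (blue) and the 3 Nr4a genes (red; Nr4a2, not among the 6 genes, is open). Grey ticks show the size each gene needs for an adjusted p-value of 0.05. Only Nr4a3 lies beyond its tick, and Egr3 is the only gene on the negative side.

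The 6 genes form 15 pairs, and the difference of log2 fold changes was compared in each of them. With both standard errors summed, the 95% interval left out 0 in 5 pairs, of which 3 were among the 6 Egr pairs. These were Egr2 minus Egr3 at 1.30 (0.45 to 2.15), Egr2 minus Egr4 at 1.05 (lower bound 0.11, summed standard error 0.48) and Egr1 minus Egr3 at 0.65 (0.13 to 1.18). The other 2 crossed the families, Nr4a3 minus Egr3 at 0.66 (0.32 to 0.997) and Egr2 minus Nr4a1 at 0.98 (0.08 to 1.89). When the intervals were widened to hold for 15 pairs together, 2 pairs still left out 0. They were Egr2 minus Egr3 (0.03 to 2.58) and Nr4a3 minus Egr3 (0.15 to 1.17), both with the negative Egr3. Egr1 and Egr2 were not told apart, with a difference of 0.65 and an interval from -0.42 to 1.72. If the errors of the genes were uncorrelated, 8 of the 15 pairs would leave out 0.

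**Figure D3:**
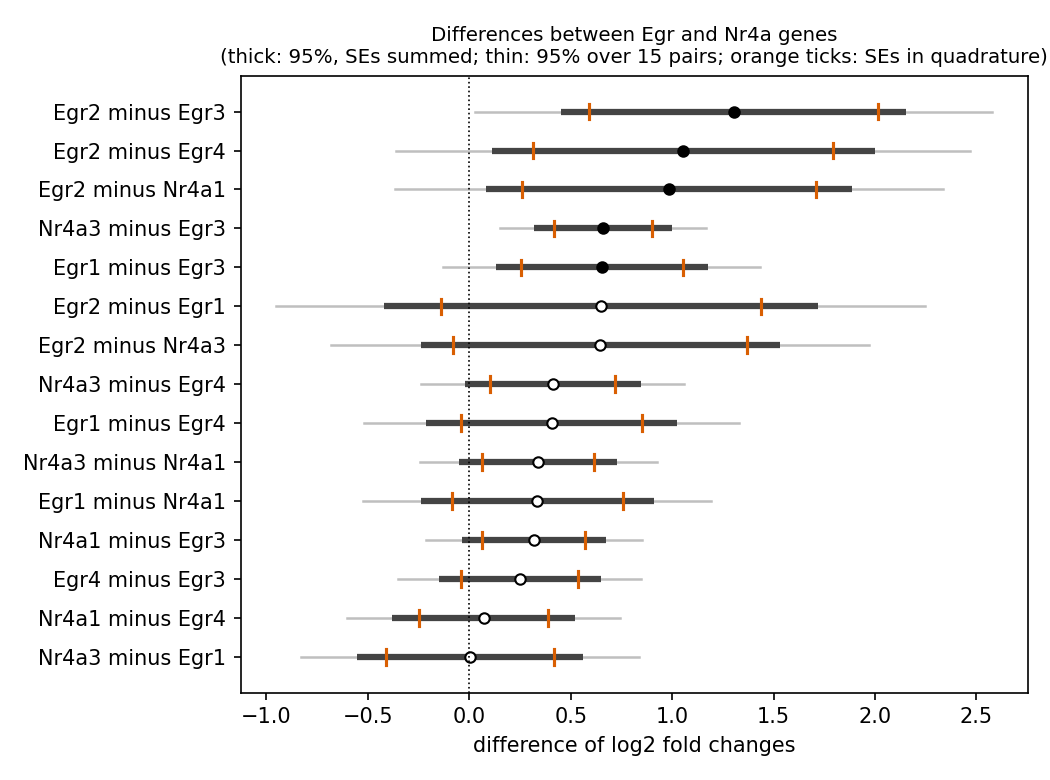
Difference of log2 fold changes (horizontal axis) for the 15 pairs of the 6 genes. Thick bars are 95% intervals with standard errors summed, thin lines the intervals that hold for 15 pairs together, orange ticks the 95% bounds with standard errors in quadrature, and filled points mark the 5 pairs whose thick bar leaves out 0. The thin lines of Egr2 minus Egr3 and Nr4a3 minus Egr3 stay above 0.

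Precision differed between the paralogues. The standard error of the log2 value, from the authors' deposited table, was 0.08 for Egr3, 0.10 for Nr4a3 and Nr4a1, 0.13 for Egr4, 0.19 for Egr1 and 0.36 for Egr2. At a Wald statistic of 3.68, the size at which the adjusted p-value reaches 0.05 in this table, Egr3 would need a 1.22-fold difference, Nr4a3 1.28-fold, Nr4a1 1.30-fold and Egr4 1.38-fold. Egr1 would need 1.62-fold and Egr2 2.48-fold. Egr3 came to 0.853 of the log2 size it needs, Egr2 to 0.808 and Egr1 to 0.59, whereas Nr4a3 exceeded its own by a factor of 1.18. A difference of the size seen in Nr4a3 would therefore not have been called in Egr1, Egr2 or Egr4.

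Egr1 had a larger standard error than genes of similar abundance. Each standard error was divided by the median of the 200 genes nearest in mean count. The ratio was 3.04 for Egr1, 1.40 for Nr4a1, 1.23 for Egr3, 1.19 for Egr2, 1.14 for Nr4a3 and 1.07 for Egr4. A ratio as high as that of Egr1 was found in 0.804% of all genes tested, and one as high as that of Nr4a1 in 3.15%. All 6 ratios were above 1, as were 49.8% of those of all genes tested. Among the 200 genes nearest in count, the standard error was above that of 98.5% for Egr1, 98% for Egr2, 97.5% for Nr4a1, 88.5% for Egr3, 85.5% for Nr4a3 and 82.5% for Egr4. High ratios were also found in lists of cell type markers, with medians of 6.65 for oligodendrocytes and 3.35 for striatum against 0.995 for microglia, and their part in the errors of the 6 genes was not tested. Egr1 and Egr3, which had similar mean counts, thus differed 2.44-fold in standard error. Under a negative binomial model with 3 and 4 libraries of equal size, an assumption the table does not allow to be checked, the standard errors correspond to a spread between libraries of one group of 17.0% for Egr1. This spread is implied by the model and was not measured from values of single libraries. The same calculation gives 6.72% to 6.74% for Egr3, 7.76% to 7.84% for Nr4a3, 8.90% to 8.91% for Nr4a1, 9.81% for Egr4 and 26.6% to 27.7% for Egr2, the range covering either group as numerator. Counting error would make up 1.24% to 1.34% of the squared standard error of Egr1 and 26.5% to 32.4% of that of Egr2. Whether 1 library carries the spread of Egr1 was not tested.

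**Figure D4:**
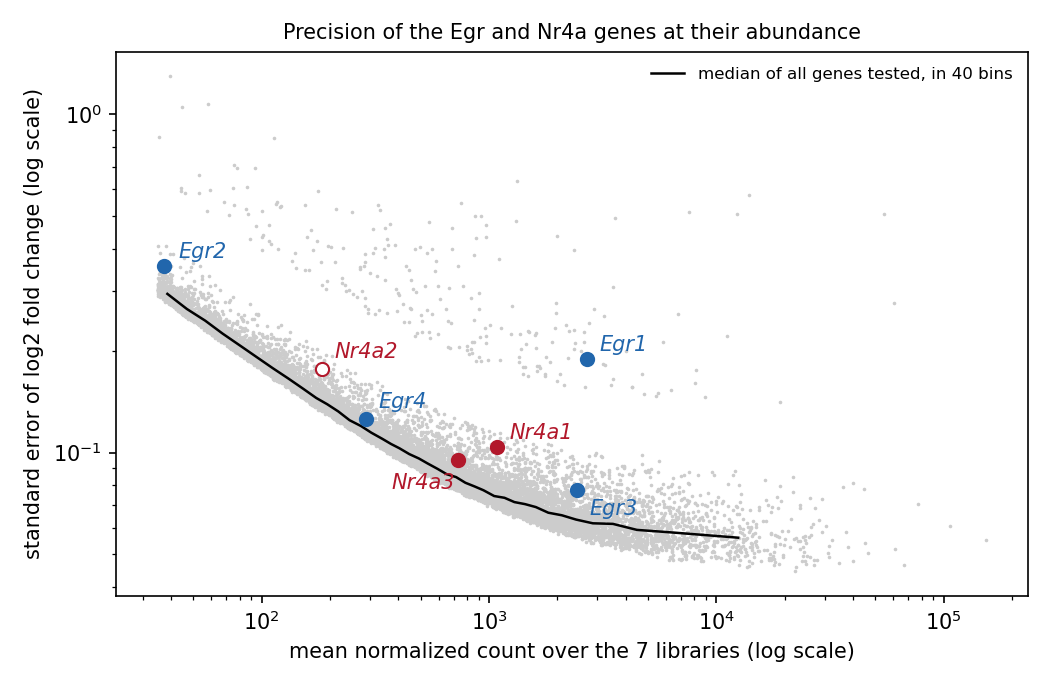
Standard error of the log2 fold change (vertical, log scale) against mean normalized count (horizontal, log scale) for the 13060 genes tested (grey), with the median in 40 bins of mean count (line). Egr genes are blue and Nr4a genes red, with Nr4a2 open. Egr1 lies 3.04 times above genes of similar count, and Egr3, at a similar count, 1.23 times.

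Other activity-induced genes also had values of both signs. Over all genes tested, 49.4% were positive, 8.1% had an unadjusted p-value (Wald test) under 0.05 and 0.513% an adjusted one. These shares stand beside the counts of each list that follows. Of 22 further rapid genes, 21 had an adjusted p-value, 14 above and 7 below 0 around a median log2 fold change of 0.04. None passed 0.05 by the authors' adjusted p-values, and 3 positive genes had an unadjusted p-value under 0.05. They were the AP-1 subunit Fos at 0.73 ± 0.26 (SE), Nr4a2, and the AP-1 subunit Fosl2 at 0.27 ± 0.11 (SE) in the authors' deposited table. Klf2 had the lowest value of these rapid genes, -0.44 ± 0.27 (SE), with an unadjusted p-value (Wald test) of 0.112. The cytoskeletal regulator Arc, itself a reported Egr target, had a log2 fold change of 0.0017 ± 0.35 (SE) in the authors' deposited table, and its standard error was 3.51 times that of genes of similar count. For Junb, another AP-1 subunit, this ratio was 2.28, against a median of 1.06 over the rapid genes. Npas4, a factor induced selectively by calcium entry, had -0.04 ± 0.12 (SE) in the authors' deposited table.

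Of 18 delayed activity-induced genes, 7 lay above and 11 below 0, around a median log2 fold change of -0.07. The salt-inducible kinase Sik1, a CREB target, was the only one to pass, at 0.59 ± 0.16 (SE) (adjusted p-value 0.0361, Wald test of the authors' deposited table). The clock gene Per1, at 0.23, and the synaptic pentraxin Nptx2, at -0.33, had unadjusted p-values under 0.05 (0.00945 and 0.0116) in the authors' deposited table. Genes of this list lay on either side of 0, as did all genes tested, so the mix of signs is no particular likeness to Egr2 and Egr3.

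The factors that act on Egr and Nr4a promoters showed small differences. Of 20 such genes tested, 10 lay above and 10 below 0, at log2 fold changes from -0.19 to 0.15 and a median of 0.0065, and none passed the adjusted threshold. The CREB coactivator Crtc1 had a log2 fold change of -0.19 ± 0.06 (SE) (adjusted p-value 0.137, Wald test of the authors' deposited table). The histone acetyltransferase Crebbp had 0.15 ± 0.07 (SE), and the serum response factor Srf -0.07 ± 0.08 (SE), in the authors' deposited table. Among 8 tested Egr corepressors and reported neuronal targets, 3 were positive and 5 negative, with values from -0.08 to 0.12 and none under an unadjusted p-value of 0.05. The smallest unadjusted p-values of this list (0.198 and 0.212, Wald test) belonged to the targets Syn2, at -0.08 ± 0.06 (SE), and Cdk5r1, at -0.07 ± 0.05 (SE). The corepressors Nab2 and Nab1 had 0.12 ± 0.11 (SE) and 0.06 ± 0.09 (SE) in the authors' deposited table. Of the 10 Nr4a family, retinoid X receptor and coregulator genes, 7 were positive and 3 negative, and Nr4a2 was the only one under an unadjusted p-value of 0.05. Of 5 tested targets of Egr2 in peripheral myelin, 4 were positive, with a median of 1.08. Mbp and Mag, which oligodendrocytes also express, had 1.15 ± 0.51 (SE) and 1.11 ± 0.50 (SE) in the authors' deposited table, with unadjusted p-values (Wald test) of 0.0230 and 0.0255. Both are also counted among the oligodendrocyte markers. Their standard errors were 9.1 and 6.4 times those of genes of similar count. Gjb1, at 1.08 ± 0.58 (SE), Pmp22, at 0.14, and Prx, at -0.28, were not under an unadjusted p-value of 0.05 (0.0652, 0.406 and 0.360). The plot of gene lists shows 2 genes past the adjusted threshold, Nr4a3 and Sik1.

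**Figure D5:**
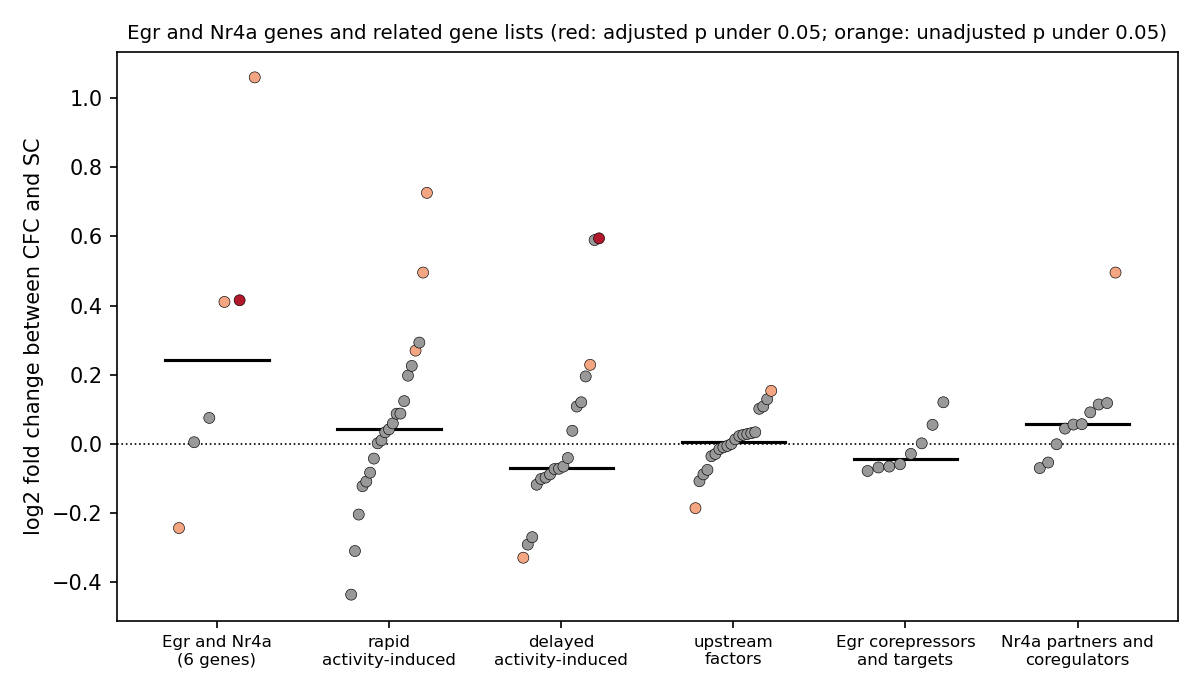
Log2 fold change between CFC and SC (vertical axis) for the 6 Egr and Nr4a genes and for 5 lists of related genes, with a point per gene and a line at the median. Red points passed an adjusted p-value of 0.05 (Nr4a3 and Sik1), orange points only an unadjusted one, and Nr4a2, Arc, Bdnf and Crem appear in 2 lists each. The 6 genes spread from -0.24 to 1.06, the upstream factors from -0.19 to 0.15.

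Several lists of cell type and layer markers had values of a single sign in the same table. All 10 oligodendrocyte markers were positive (log2 fold changes from 0.95 to 1.67, none passing the adjusted threshold), as were all 10 deep-layer markers (0.25 to 2.10, 5 passing) and all 7 striatal markers (0.14 to 1.95, 1 passing). Of 8 upper-layer markers 7 were negative (-0.42 to 0.06, 2 passing). All 6 microglial markers were negative (-0.21 to -0.0073), as were 5 of 7 endothelial and mural markers (-0.27 to 0.11), and none of these passed. Of 6 parvalbumin interneuron markers 4 were negative (-0.23 to 0.09), of 5 astrocyte markers 3 were (-0.15 to 0.56), and all 3 blood markers tested were (-0.42 to -0.03), with none passing. The positive Egr2, Egr1 and Nr4a3 have the sign of the deep-layer, striatal and oligodendrocyte markers, as do Nr4a1 and Egr4, with values nearer to 0. Egr3 has that of most upper-layer, microglial, blood, endothelial and mural, parvalbumin interneuron and astrocyte markers. Since lists of either sign are present, any gene shares its sign with some of them. No tested marker had a mean count of 0. The table gives no level per group for these lists, and the part of the markers in the values of the 6 genes was not tested. In bulk tissue, fewer cells of a type and less RNA per cell cannot be told apart.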

How the data were processed

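Per the labels' protocols, libraries were built from 100 ng of RNA (RNeasy Micro) by the KAPA mRNA HyperPrep method. The submitters' processing notes name Trimmomatic, Subread, DESeq2 and the build mm10; versions, annotation and strand setting are not given in the sources used here. Per the file headers, the authors deposited a mean normalized count (a signal averaged over libraries), a log2 fold change with its standard error, a Wald score, and unadjusted and adjusted p-values. The Wald score equalled the log2 fold change over its standard error, within 1e-06, for each of the 17729 genes that have a p-value. The adjusted p-value, deposited for 13060 genes, corresponds to a Benjamini-Hochberg adjustment over 14432 genes, of which 1372 were not analysed here.

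The count test planned for values per library could not be used on such a table, so the authors' own test was used, with a threshold of 0.05. Intervals at 95% are normal. Python 3.11.15, scipy 1.17.1 and GENCODE M21 were used, and the calculations were tested on simulated data. Exons of the 6 genes and Nr4a2 overlap no exon of another annotated gene. CArG boxes and MEF2 sites were searched by their consensus on both strands. The genes and lists were chosen with earlier results of these data known. Named were all 6 genes, Nr4a2 and, of each list of related genes, those under the adjusted threshold and up to 4 with the smallest p-values. Marker lists were given as counts and ranges, so their genes under the adjusted threshold were not named. Arc, Junb, Npas4, Srf, Nab1 and Pmp22 were added after their values had been seen.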

Additional observations from a re-analysis of the deposited data

How the results depend on the processing

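No paired analysis was possible because values of single libraries were not used here, and for the same reason refits with other normalizations, a filter on counts per library, a replicate block or a library left out were not run. The number of genes called, 67 (48 positive, 19 negative), became 101 at a threshold of 0.1, 21 with a Bonferroni adjustment and 2 against a null of at most 1.2-fold, where the stricter rules call fewer by construction. Nr4a3 lost its call in those last settings, at 0.173 and 1. It kept the call at a threshold of 0.1, with no filter on the mean count and with a mean count of at least 100. The call was also kept with values centred on the median and with statistics divided by their robust SD. Over the settings that kept the call, the adjusted p-values of Nr4a3 (Wald test) ran from 0.00552 to 0.00764. The adjusted p-values of Egr1, Egr2, Egr3, Egr4 and Nr4a1 stayed above the threshold in every alternative that could be run; Egr2 gave none with a mean count of at least 100. The lowest were 0.497, 0.178, 0.138, 0.998 and 0.973. In the Bonferroni, 1.2-fold, centred and robust SD settings, the adjustment was over the 13060 genes listed. The deposited one was over 14432 genes, so each of these changes also holds the effect of the smaller number. With standard errors in quadrature, which assumes no correlation between genes, 8 pairs instead of 5 left out 0. The added pairs were Nr4a1 minus Egr3, Nr4a3 minus Egr4 and Nr4a3 minus Nr4a1, with lower bounds of 0.06, 0.10 and 0.06. Windows of 100 or 400 genes changed each ratio of standard errors by less than 1.1 times.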
